A study of Mus musculus with 4 samples.

Results

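The 10 genes described here are 3 FoxO transcription factors (Foxo1, Foxo3 and Foxo4) and 7 genes known as FoxO targets with catabolic, growth-restraining or cell cycle roles (Fbxo32, Trim63, Sesn1, Sesn3, Pik3ip1, Bcl6 and Ccng2). They were taken by name from the 22180 genes with a value on the array, and all 10 were measured. Foxo1 was the 1 member with 2 rows, and its row was chosen by mean level over the 4 arrays, the brighter being used (7.53 against 5.78 on the log2 scale). No other measured value entered the rule. FoxO proteins are forkhead factors held in the cytoplasm when insulin or growth factor signalling through PI3K and Akt phosphorylates them. When that signalling falls they enter the nucleus and switch on genes for protein breakdown, autophagy, stress resistance and arrest of the cell cycle. Much of this phosphorylation control acts on the protein and need not alter the transcript of the factor itself, whereas the targets are read at the transcript level.

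The cells were primary keratinocytes of 1-week-old C57BL/6J mice. The wild-type group carried Glut1 fl/fl alleles without Cre. The Glut1-deficient group carried the same floxed alleles and K14 Cre, so that Cre was driven by the promoter of keratin 14, a gene of basal keratinocytes, and other cells in the culture are not targeted by it. Both groups grew in the same low-calcium medium with 0.05 mM calcium chloride, 0.5 µg/ml insulin, 5 ng/ml EGF and 0.05 µg/ml hydrocortisone, supplemented with bovine pituitary extract. Insulin and EGF feed the PI3K and Akt pathway, and glucocorticoids such as hydrocortisone are known inducers of Fbxo32 and Trim63 in muscle. Each genotype was represented by 4 mice, whose cells were replated at matched density on day 3 and collected 1 day afterwards. Pools of 2 plates made up each array, giving 2 arrays per genotype. The lysates differed in input, 1500000 cells for wild type against 1000000 for Glut1-deficient samples. Values are log2 intensities, so a difference of 1 is a factor of 2, and they are compared between arrays for a given gene and never between genes. The arrays had medians between 4.07 and 4.11 over all rows, and precision is limited by having 2 of them per genotype. Wild-type arrays correlated at 0.9962, Glut1-deficient arrays at 0.9951 and arrays of different genotype at 0.9866 to 0.9909 over genes. The main row of Slc2a1, the targeted gene, read 11.13 and 11.05 on wild-type arrays and 11.01 and 11.01 on Glut1-deficient arrays. A second, dimmer row read 5.18 and 5.09 against 4.80 and 4.44 (log2 fold change -0.52). The sources used here do not place the probes of either row relative to the deleted exons, so these rows check nothing about the genotype. Of the keratinocyte markers, the basal keratin Krt14 read 12.56 and 12.54 on wild-type arrays and 12.15 and 12.21 on Glut1-deficient arrays. The rows of Krt15 (mean 2.98) and Krt1 (3.55) lay below the median level of all genes, and that of Krt10 (4.91) close to it.

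The members did not move together. Fbxo32, the muscle atrophy ubiquitin ligase atrogin-1, fell 3.29-fold, Bcl6, a transcriptional repressor, rose 1.68-fold, and the other 8 members did not pass the test (limma on all genes, Benjamini-Hochberg adjusted p under 0.05). The background share of genes called was 2.84% of all genes tested (1.05% fell and 1.79% rose). The members were named with earlier results of these arrays known, so their share is a description and not evidence about FoxO target genes in general. In 8 of the 10 members the arrays of the genotypes did not overlap, 4 with the Glut1-deficient arrays higher and 4 with them lower, against a background of 53.2% of all genes. At unadjusted p under 0.05 limma held 6 of the 10 members and 22.2% of all genes, the share beside which the unadjusted counts given for other lists stand. The median log2 fold change was -0.07 over the members and -0.007 over all genes, with 4 positive and 6 negative members. Transcripts per cell and the share of cells that express a gene cannot be told apart in such pooled cultures.

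**Figure D1:**
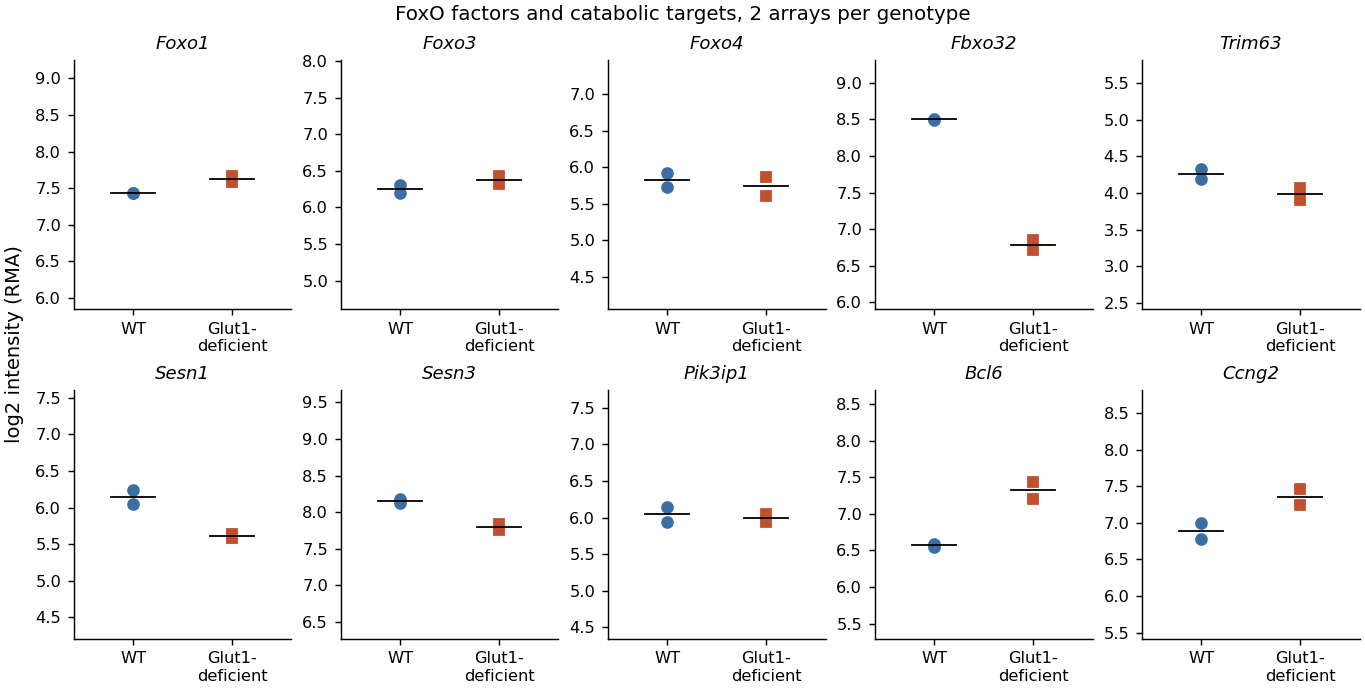
Log2 intensity (RMA) of the 10 members on each wild-type array (circles) and each Glut1-deficient array (squares); horizontal lines are the means of 2 arrays, and every panel spans the same log2 range. Fbxo32 shows the widest gap, 8.50 against 6.78, and Foxo4 and Pik3ip1 overlap between genotypes.

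The transcripts of the FoxO factors themselves differed little. Foxo1, the factor best known for insulin-regulated gene control, read 7.44 and 7.43 on wild-type arrays and 7.67 and 7.58 on Glut1-deficient arrays. Both Glut1-deficient arrays were higher, by a log2 fold change of 0.19, 95% confidence limits -0.03 and 0.42 (limma adjusted p = 0.285). The second, dimmer row of Foxo1 read 5.73 and 5.92 against 5.55 and 5.91. Its log2 fold change was -0.10, 95% limits -0.55 and 0.36, so the rows of Foxo1 had opposite signs and neither was shown to differ. Foxo3, linked to arrest, apoptosis and autophagy, read 6.19 and 6.30 on wild-type arrays and 6.43 and 6.32 on Glut1-deficient arrays. The groups were separated by only a small step, and the log2 fold change was 0.13, 95% limits -0.12 and 0.38 (limma adjusted p = 0.506). Foxo4, the X-linked member, read 5.72 and 5.91 on wild-type arrays and 5.87 and 5.61 on Glut1-deficient arrays. The groups overlapped, with a log2 fold change of -0.08, 95% limits -0.42 and 0.26 (limma adjusted p = 0.777). For the rows used, the largest rise within these intervals was 0.42, for Foxo1, and the largest fall -0.42, for Foxo4. No single interval reached both, and larger changes were left out. Foxo6, the remaining family member and one named after its values were seen, read 5.14 and 5.03 against 5.54 and 5.29 (log2 fold change 0.33, limma adjusted p = 0.203).

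The ubiquitin ligases of muscle wasting gave the largest difference among the members. Fbxo32, the substrate adaptor atrogin-1 of an SCF ubiquitin ligase, read 8.50 and 8.51 on wild-type arrays and 6.71 and 6.85 on Glut1-deficient arrays. Both Glut1-deficient arrays lay far below both wild-type arrays, and the gap was many times the spread within either pair. It fell by 1.72 on the log2 scale, 95% limits -1.96 and -1.48 (SE 0.094, limma adjusted p = 0.0129), and was number 80 of 22180 genes by size of change. Leaving out any 1 array left its log2 fold change between -1.79 and -1.65, although with 1 residual degree of freedom no gene passed limma's adjusted test then (2948 to 4627 genes at unadjusted p under 0.05). Its call was also lost when every row of the table was tested as a feature (limma adjusted p = 0.0900). Among genes at or above the median level, those whose 4 values followed Fbxo32 most closely were Bst1, Tmem176a and Cnksr2, with root mean square differences of 0.062, 0.065 and 0.068 on the log2 scale over 4 arrays after each gene was set to its wild-type mean. With so few arrays many genes share such a step, and this likeness is a description.

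Trim63, the RING-finger ligase MuRF1, is usually named together with Fbxo32. It read 4.33 and 4.20 on wild-type arrays and 4.07 and 3.90 on Glut1-deficient arrays. Both Glut1-deficient arrays were lower, but by a log2 fold change of only -0.28, 95% limits -0.55 and -0.003 (limma adjusted p = 0.222). It was the 1 member whose mean lay below the median of all genes, where intensity may stand close to background, and no detection calls were used here. Skeletal muscle is the tissue in which both ligases are best studied. Of 15 muscle markers 0 passed (limma, 0 also at unadjusted p under 0.05), and their log2 fold changes ran from -0.28 to 0.13. Only 5 of the 15 had a mean at or above the median level of all genes, and the others may stand close to background. Acta1, the skeletal actin gene, read 7.09 and 7.34 against 6.84 and 7.02, Tnnc2, a fast troponin, 5.37 and 5.53 against 5.31 and 5.43, and Myog, a myogenic factor, 5.15 and 5.33 against 5.07 and 5.43.

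**Figure D2:**
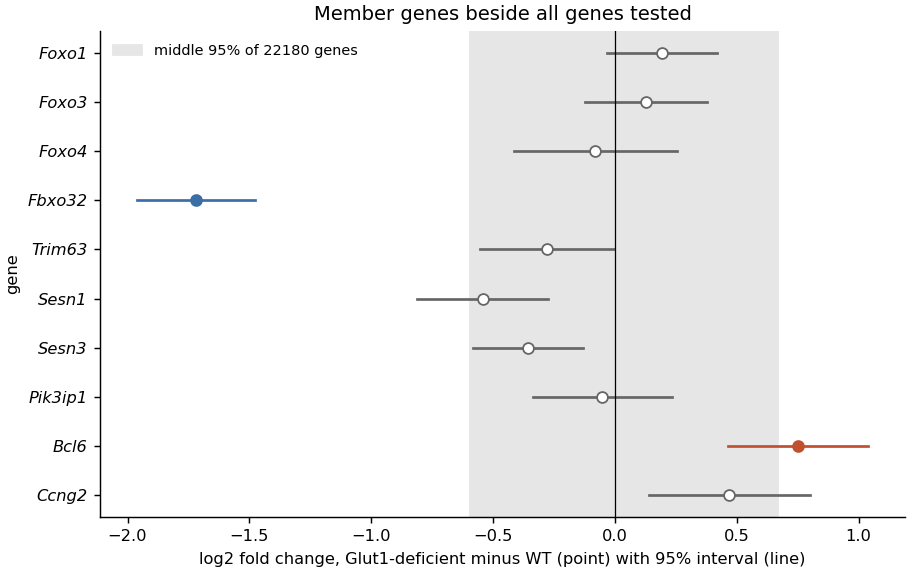
Log2 fold change of each member, Glut1-deficient minus wild type, with its 95% interval from limma; filled points passed the adjusted test and the grey band holds the middle 95% of 22180 genes (-0.59 to 0.67). Fbxo32 lies outside the band on the low side and Bcl6 on the high side.

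Promoter sequence was examined for the letters that FoxO proteins are known to bind. RefSeq windows on GRCm38.p6, from 250 bases before to 50 bases after each start, were held for 8 of the 10 members (10 windows); Fbxo32 and Foxo4 had no entry. The DAF-16 binding element GTAAACA, searched on both strands, was present in 2 members, Trim63 and Sesn1, and in 4.05% of all 27025 genes with such windows (3.65% of 32851 windows). The insulin response element core CAAAACA, searched likewise and not overlapping a match of the first motif in these members, was present in 1 member, Ccng2, and in 7.2% of all such genes (6.28% of windows). The match in Trim63 began 194 bases before the start and was on the opposite strand, that in Ccng2 began 16 bases before the start, and that in Sesn1, also on the opposite strand, began 22 bases after it. The stretches upstream of Trim63 and Ccng2 are shown because they hold a match and because these members lay on opposite sides of 0, Trim63 at -0.28 and Ccng2 at 0.47. Neither difference passed limma's adjusted test, and a link between motif and direction was not tested. Capitals mark the motif letters as they stand on the gene's own strand. Trim63 is on the plus strand at chr4:134314870-134315119 and Ccng2 on the plus strand at chr5:93267323-93267572.
Trim63: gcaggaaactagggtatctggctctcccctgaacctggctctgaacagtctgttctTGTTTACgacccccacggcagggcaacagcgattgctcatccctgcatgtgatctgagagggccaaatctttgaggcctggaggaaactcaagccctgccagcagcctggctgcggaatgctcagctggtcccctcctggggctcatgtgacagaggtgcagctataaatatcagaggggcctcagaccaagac
Ccng2: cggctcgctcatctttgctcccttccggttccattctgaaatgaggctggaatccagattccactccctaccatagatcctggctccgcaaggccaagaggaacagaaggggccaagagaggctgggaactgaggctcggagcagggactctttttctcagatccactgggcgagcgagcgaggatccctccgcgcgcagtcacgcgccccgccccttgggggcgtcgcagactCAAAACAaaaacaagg
A match is a string of letters and not a measured binding site, and windows of this length leave out distal elements.

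The sestrins split by paralogue. Sestrins are stress-inducible proteins that restrain mTORC1 through the GATOR complexes. Sesn1 and Sesn3 are members here, and Sesn2 stands in the list of other FoxO targets described below. Sesn1, also a p53 target, read 6.24 and 6.05 on wild-type arrays and 5.63 and 5.58 on Glut1-deficient arrays. Both Glut1-deficient arrays were lower, with a log2 fold change of -0.54, 95% limits -0.81 and -0.28, short of the threshold (limma adjusted p = 0.0695). Sesn3 read 8.18 and 8.12 against 7.76 and 7.83. The pairs were tight and did not overlap, with a log2 fold change of -0.36, 95% limits -0.58 and -0.13 (limma adjusted p = 0.108). Sesn2, also known to be induced through ATF4, read 7.79 and 7.61 on wild-type arrays and 8.55 and 8.33 on Glut1-deficient arrays. It lay on the other side of 0 from Sesn1 and Sesn3, with a log2 fold change of 0.74, 95% limits 0.42 and 1.06 (limma adjusted p = 0.0549). None of the sestrins passed the adjusted test (3 of 3 at unadjusted p under 0.05 in limma), and the difference between paralogues was not itself tested. Sesn1 and Sesn3 passed under a variance prior that varied with intensity (limma adjusted p = 0.026 and 0.0209), a setting under which 12% of all genes were called. They also passed when genes below the median level were left out (limma adjusted p = 0.0214 and 0.0306), where 21% were called.

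Pik3ip1 encodes a transmembrane inhibitor of PI3K, the kinase upstream of Akt. It read 5.94 and 6.15 on wild-type arrays and 5.94 and 6.05 on Glut1-deficient arrays. The groups overlapped, and the log2 fold change was -0.05, 95% limits -0.34 and 0.23 (limma adjusted p = 0.833). Bcl6, a zinc finger repressor best known from germinal centre B cells and a FoxO target in several cell types, read 6.59 and 6.55 on wild-type arrays and 7.44 and 7.21 on Glut1-deficient arrays. Both Glut1-deficient arrays were higher, and it rose by 0.75 on the log2 scale, 95% limits 0.46 and 1.04 (SE 0.111, limma adjusted p = 0.0457). That call stood close to the threshold and was lost when the genes were quantile normalized again (limma adjusted p = 0.0518, log2 fold change 0.73), where 2.73% of all genes were called. It was lost too with every row tested (limma adjusted p = 0.136) and with any 1 array left out, where its log2 fold change ran from 0.64 to 0.87. The lymphocyte markers Cd3e, Cd4 and Cd8a had means between 3.42 and 3.98, and 0 of 7 tested lymphocyte markers passed (limma, 2 at unadjusted p under 0.05). All 7 lay below the median level of all genes. The B cell markers Cd79a and Ms4a1, named after their values were seen, had log2 fold changes of 0.14 and -0.16. Ccng2, an atypical cyclin that accompanies cell cycle arrest and is a widely used FoxO reporter, read 6.77 and 6.99 on wild-type arrays and 7.24 and 7.46 on Glut1-deficient arrays. The groups did not overlap, but the pairs were wide, and the log2 fold change was 0.47, 95% limits 0.14 and 0.80 (limma adjusted p = 0.127). Like Sesn1 and Sesn3 it passed with an intensity trend (limma adjusted p = 0.0406) and without genes below the median level (limma adjusted p = 0.0497). Fbxo32, Trim63, Sesn1 and Sesn3 had both limits below 0, Bcl6 and Ccng2 had both above 0, and Pik3ip1 had limits on either side.

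Upstream of FoxO, the insulin and PI3K axis held changes in both directions. Of 24 tested genes of this list, 1 rose, 2 fell and 21 did not pass (median log2 fold change -0.02). Trib3, a pseudokinase described as an Akt inhibitor and a known target of ATF4 and CHOP, read 6.11 and 6.30 on wild-type arrays and 8.63 and 8.32 on Glut1-deficient arrays. It rose by 2.27 on the log2 scale (SE 0.141, limma adjusted p = 0.0129). Irs1, the adaptor that carries insulin and IGF receptor signals to PI3K, read 7.11 and 7.18 against 5.63 and 5.99 and fell by 1.33 (SE 0.143, limma adjusted p = 0.0272). Sgk1, a kinase that phosphorylates FoxO proteins at sites shared with Akt, read 7.95 and 7.91 against 7.16 and 7.32 and fell by 0.69 (SE 0.098, limma adjusted p = 0.0419). The paralogue Irs2, itself described as a FoxO target and named after its values were seen, read 7.17 and 7.25 against 8.07 and 7.82. It lay opposite to Irs1 with a log2 fold change of 0.73 and just missed the threshold (limma adjusted p = 0.0514).

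**Figure D3:**
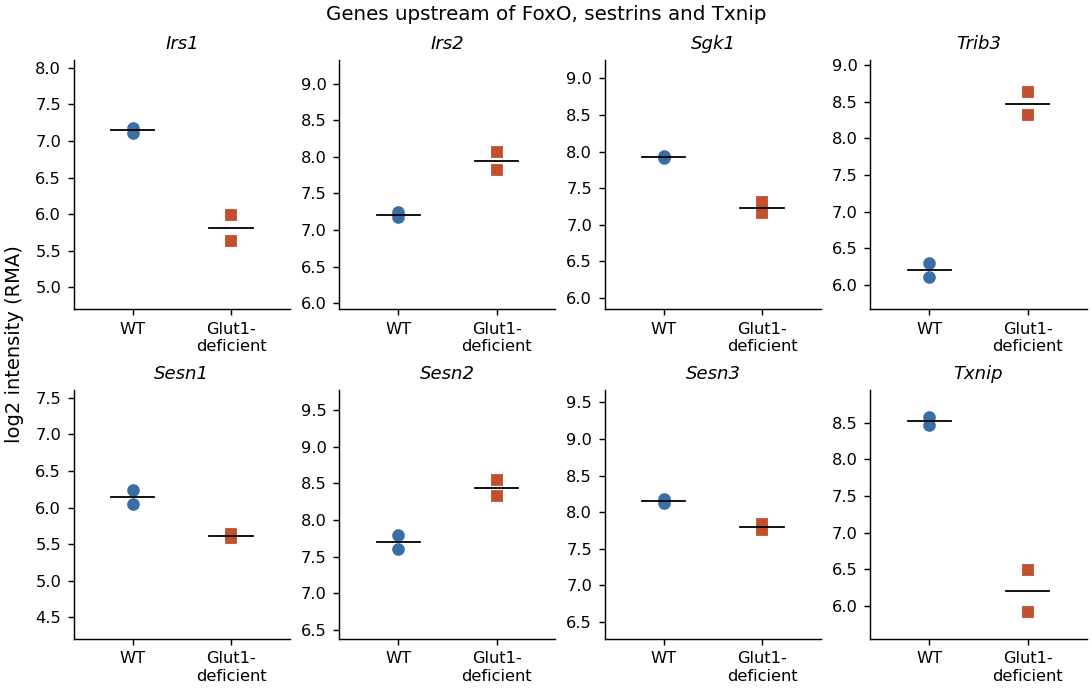
Log2 intensity (RMA) of Irs1, Irs2, Sgk1, Trib3, the sestrins and Txnip on each wild-type array (circles) and each Glut1-deficient array (squares), with the mean of 2 arrays as a line and the same log2 range in every panel. Irs1, Sesn1 and Sesn3 lie lower and Irs2 and Sesn2 higher on the Glut1-deficient arrays, and of these 5 genes Irs1 passed the test.

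Among direct modifiers and partners of FoxO proteins, 1 of 23 tested genes rose, 0 fell and 22 did not pass (median -0.08). The gene that rose was Sirt2, a deacetylase that acts on FoxO1 and FoxO3, which read 9.80 and 9.90 on wild-type arrays and 10.43 and 10.45 on Glut1-deficient arrays (log2 fold change 0.59, SE 0.089, limma adjusted p = 0.0475). Of 29 tested genes in a list of other FoxO targets, 2 rose, 1 fell and 26 did not pass (median 0.10). Eif4ebp1, the translation repressor 4E-BP1 and also an ATF4 target, read 10.02 and 9.98 against 10.88 and 10.78 and rose by 0.83 (limma adjusted p = 0.0272). Cited2, a transcriptional co-regulator, read 8.75 and 8.82 against 9.64 and 9.41 and rose by 0.74 (limma adjusted p = 0.0485). Txnip, an arrestin-related gene controlled by glucose metabolites as well as by FoxO1, read 8.58 and 8.47 against 5.92 and 6.48 and fell by 2.32 (limma adjusted p = 0.0207). Within this list, too, calls stood on both sides of 0.

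In a list of Bcl6, its relatives and corepressors and Prdm1, 2 of 9 tested genes rose, 0 fell and 7 did not pass (median 0.21). No relative or corepressor in it was called. Besides Bcl6 itself, Prdm1, the repressor BLIMP1 that is expressed in differentiating keratinocytes, read 7.52 and 7.51 on wild-type arrays and 8.56 and 8.41 on Glut1-deficient arrays and rose by 0.97 (SE 0.096, limma adjusted p = 0.0223). Among 31 other forkhead factors, 1 rose, 0 fell and 30 did not pass (median 0.06). Foxq1, an epithelial forkhead factor needed for normal hair, read 6.02 and 5.73 against 6.78 and 6.71 and rose by 0.87 (SE 0.125, limma adjusted p = 0.0433).

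The lists of other atrophy ligases, of autophagy, of sestrins and GATOR and of atypical cyclins held no called gene. None of 13 tested ubiquitin ligases and proteolysis genes of muscle wasting passed (limma, 2 at unadjusted p under 0.05, median -0.03). Of these Zfand5 had a log2 fold change of 0.42, Traf6 of 0.43 and Fbxo21, an F-box ligase component, of -0.33, so the fall of Fbxo32 was not accompanied by called falls in this list. None of 28 tested core autophagy genes passed (limma, 9 at unadjusted p under 0.05, median 0.05). The autophagy receptor Sqstm1 was closest (log2 fold change 0.77, limma adjusted p = 0.0512), the initiating kinase Ulk1 was at -0.62 (limma adjusted p = 0.075) and Atg3 at 0.34. None of 13 sestrin and GATOR genes passed (limma, 6 at unadjusted p under 0.05, median -0.02), with the GATOR1 subunit Depdc5 at -0.39. None of 6 tested atypical cyclins passed (limma, 3 at unadjusted p under 0.05, median -0.03). Ccni was at 0.27 and Ccng1, a p53 target and the closest relative of Ccng2, at -0.26. Across the 169 tested genes of all these pathway and family lists outside the members, 9 were called (5.33%), 6 risen and 3 fallen, beside the background of 2.84% over all genes.

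**Figure D4:**
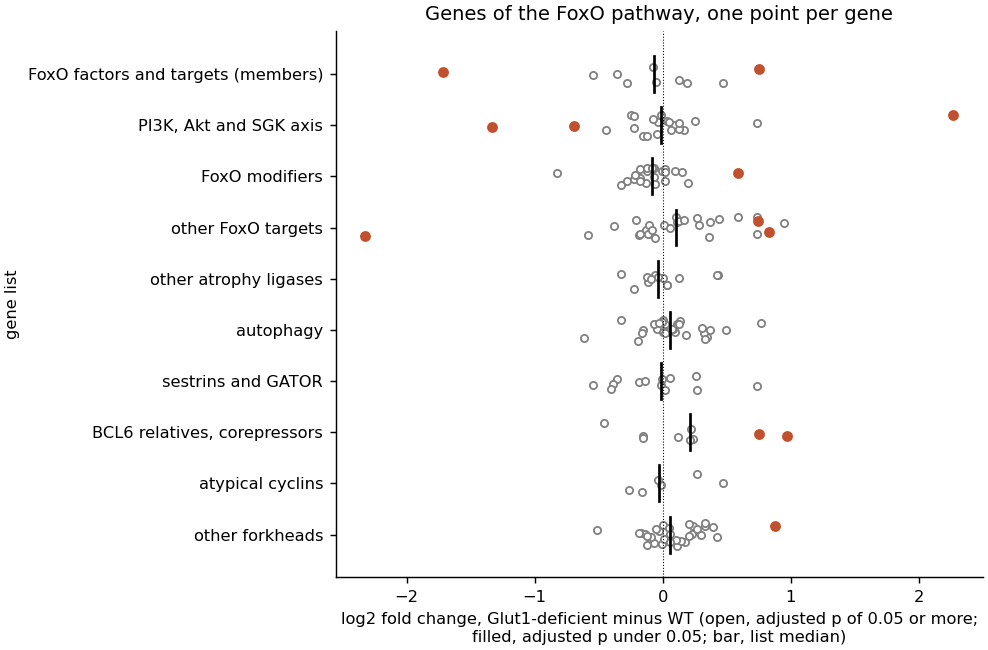
Log2 fold changes, Glut1-deficient minus wild type, of the genes of each list (1 point per gene, jittered vertically); filled points passed limma's adjusted test and bars are list medians. Medians lie between -0.08 and 0.21, and the filled points stand on both sides of 0; Bcl6, Ccng2, Sesn1, Sesn3, Sesn2, Irs2 and Insr appear in more than 1 list.

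Markers of other cell types moved with the genotype and are given beside these results. The mean log2 level over 11 tested fibroblast markers was 4.98 and 4.96 on wild-type arrays and 6.56 and 5.93 on Glut1-deficient arrays. All 11 had positive log2 fold changes (median 1.08), and 1, Twist2, passed limma's adjusted test. Pdgfra read 5.97 and 5.84 against 8.64 and 7.47, Dcn 5.65 and 5.52 against 8.18 and 7.01, and Vim 8.38 and 8.07 against 10.40 and 9.44. The mean over 9 melanocyte markers was 5.28 and 5.11 against 5.89 and 5.92. Of these markers 4 rose, including Dct (1.77), Pmel (1.69) and Tyrp1 (1.31) as log2 fold changes. The other 5 missed the threshold, among them Kit (0.20), Tyr (0.05) and Sox10 (-0.14), which were named after their values were seen. Fibroblast markers were higher on Glut1-deficient array 1 than on array 2. Relative to the wild-type mean, Fbxo32 stood at -1.79 on array 1 and -1.65 on array 2, Bcl6 at 0.87 and 0.64, and Sesn3 at -0.39 and -0.32, so these were farther from wild type on array 1. Foxo1, at 0.24 and 0.15, and Foxo3, at 0.18 and 0.07, were likewise farther from wild type on array 1. Ccng2 stood at 0.36 and 0.58, Sesn1 at -0.52 and -0.57, and Trim63 at -0.20 and -0.36, farther from wild type on array 2. Foxo4, at 0.05 and -0.21, and Pik3ip1, at -0.10 and 0.00059, changed side between the arrays. Without Glut1-deficient array 1 the log2 fold change of Fbxo32 was -1.65, that of Bcl6 0.64 and that of Ccng2 0.58, and 0 genes passed limma's adjusted test (3642 at unadjusted p under 0.05). The part of these other cells in the members' values was not tested.

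**Figure D5:**
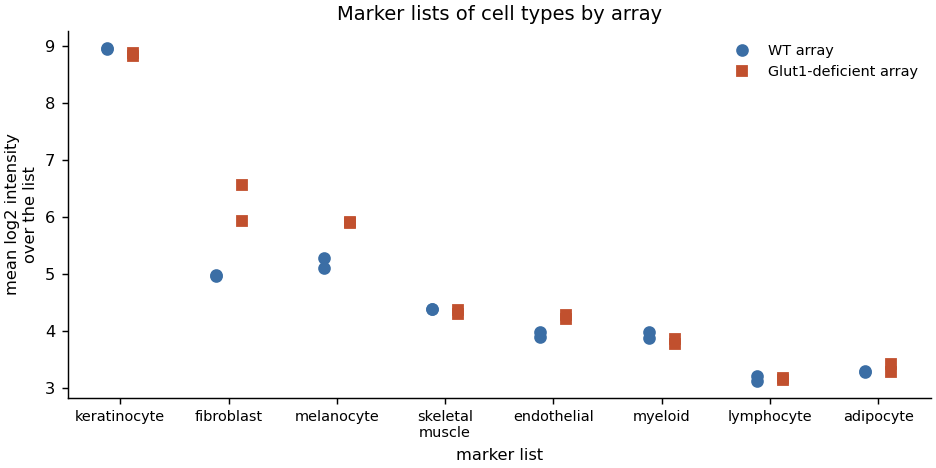
Mean log2 intensity over the tested markers of each cell type list on each wild-type array (circles) and each Glut1-deficient array (squares). The fibroblast list stands at 4.98 and 4.96 on wild-type arrays and 6.56 and 5.93 on Glut1-deficient arrays, while the skeletal muscle list lies between 4.30 and 4.39 on all 4 arrays.

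The remaining marker lists showed smaller gaps. The keratinocyte mean over 12 tested markers was 8.94 and 8.96 on wild-type arrays and 8.82 and 8.87 on Glut1-deficient arrays, and 0 passed (limma, 7 at unadjusted p under 0.05). Perp read 11.88 and 11.86 against 12.18 and 12.14, and Dsp 11.72 and 11.62 against 11.66 and 11.71, while the desmosomal cadherin Dsg3 was at 0.47. Several markers of basal cells and their adhesion to the basement membrane had negative log2 fold changes. Col17a1 was at -0.73, Itgb4 at -0.57, Krt14 at -0.37, Itga6 at -0.31 and Trp63 at -0.29. Both Glut1-deficient arrays lay below both wild-type arrays in each of these. The basal keratin Krt15 was on the other side of 0, at 0.11, with overlapping groups and a mean of 2.98, below the median level of all genes. Of the keratinocyte genes, those other than Krt14, Perp and Dsp were named after their values were seen. Of 7 endothelial markers 1 rose, Kdr, a receptor not restricted to that lineage (log2 fold change 2.38), while Pecam1 was at -0.35 and Cdh5 at -0.10. None of 8 myeloid markers (Cd68, Csf1r and Cd207 among them) and none of 5 adipocyte markers (Plin1, Cidec and Lep among them) passed (limma, 2 and 1 at unadjusted p under 0.05).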

How the data were processed

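Array values were deposited by the authors as log2 intensities, 1 per row, made by RMA in Affymetrix Expression Console, according to the submitters' processing notes; their versions, settings and build: not given in the sources used here. RMA equalises the arrays' distributions, so changes are relative to other genes. Of 41345 rows, 23521 carried 1 gene symbol, and the brightest row by mean level represented each of 22180 genes. Glut1-deficient minus wild type was tested by limma 3.58.1 under R 4.3.3 (lmFit, eBayes, no trend), two-sided, Benjamini-Hochberg adjusted over all genes, threshold 0.05, with no filter on level. An exact permutation test of 2 against 2 arrays cannot go below p = 0.333. The labels call the arrays biological replicates; p-values reflect only how these pools vary. The fit was tested on simulated data with 50 genes changed at each size. It called 0 of 50 at a log2 change of 0.5, 29 at 1, 50 at 2 and 49 at 3. The members and lists were chosen with earlier results of these data known. Named were all members, Slc2a1, each list's called genes (at most 6) or else the 3 with the smallest p, the 3 brightest markers per cell type and the 3 genes most like the member with the largest change; others are said to be chosen later. Alternatives were other variance priors, normalizations, row rules, a level filter, each array left out, the replicate number as a block and an unmoderated test. Replicate arrays of the same number had deviations that correlated at -0.025 over genes, so the numbers were not treated as pairs. Figures used matplotlib 3.10.9.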

Additional observations from a re-analysis of the deposited data

How the results depend on the processing

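The direction of Foxo1, Foxo3, Fbxo32, Trim63, Sesn1, Sesn3, Bcl6 and Ccng2 in the rows used stayed the same under all alternatives run. Of 129 member values under the alternatives, 102 kept direction and side of the threshold, 14 lost the call, 9 gained one and 4 changed sign. The sign changes came from leaving out arrays: Foxo4 then ranged from -0.21 to 0.048 (0.015 with wild-type array 2 omitted, 0.048 with Glut1-deficient array 2 omitted) and Pik3ip1 from -0.15 to 0.052 (0.052 with wild-type array 2 omitted, 0.00059 with Glut1-deficient array 1 omitted).

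The counts of calls changed with the variance model, the features tested, the normalization and the arrays used. An intensity trend gave 2671 of 22180 genes (12%), 5 of 10 members and 37 of 169 list genes (2729, 5 and 38 with robust estimation). Among genes at or above the median level, which leaves out Trim63, 2327 of 11090 genes (21%), 5 of 9 members and 31 of 141 list genes passed. These 5 members were Fbxo32, Sesn1, Sesn3, Bcl6 and Ccng2 each time. Renewed quantile normalization left 1 member, Fbxo32, and 606 genes (2.73%). With every row tested as a feature, which adds rows to the adjustment, 0 genes, 0 members and 0 list genes passed in limma (6694, 5 and 40 at unadjusted p under 0.05), and likewise 0, 0 and 0 without moderation (3646, 4 and 42 unadjusted). Leaving out any 1 of the 4 arrays, which leaves 1 residual degree of freedom, gave 0 to 0 genes, members and list genes in limma (2948 to 4627, 3 to 6 and 26 to 39 unadjusted). With the replicate block, 37 genes, 1 member (Fbxo32) and 0 list genes passed in limma (4335, 6 and 41 unadjusted); the numbers are not known to pair the arrays. The cause of these shifts was not tested. No detection calls were used, so how far Trim63 stood above background is unknown.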
